A study of Homo sapiens with 3 samples.

Results

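The Krüppel-like factors described here were 10 genes, KLF2, KLF3, KLF4, KLF5, KLF6, KLF7, KLF9, KLF10, KLF11 and KLF13, taken as every probe set whose only gene symbol in the platform annotation is one of these. They were read by 32 of the 54675 probe sets of a whole-genome Affymetrix array and made up 10 of the 19775 genes with a symbol of their own. The cells were SKBR3, a human mammary carcinoma line that carries an amplified ERBB2 gene and is known for lacking oestrogen receptor α. All cultures were first kept for 4 h with 10% charcoal-stripped serum (low in steroid hormones). They were then kept for 3 h with 1 µM estradiol, with 1 µM ERα17p (a peptide copied from oestrogen receptor α) or with 0.1% ethanol as vehicle. The labels give no solvent for estradiol or for ERα17p. Each treatment had 1 array, 3 in all, so no value below has a replicate error and no difference has a test or a p-value. The comparisons ask what estradiol did, what the peptide did, and where the responses parted.

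Krüppel-like factors are transcription factors that grip GC-rich and CACCC sequences of DNA through 3 zinc fingers at the end of the protein. They share this part and differ in the rest, through which some recruit coactivators (KLF2, KLF4, KLF5, KLF6 and KLF7), one recruits the corepressor CtBP (KLF3) and others recruit the corepressor SIN3A (KLF9, KLF10, KLF11 and KLF13). Several are known as early genes, transcribed soon after a stimulus: KLF4 and KLF6 after serum, stress or injury, KLF10 and KLF11 after transforming growth factor β, and KLF9 after glucocorticoid or thyroid hormone. In breast and other epithelia KLF4 is linked to differentiation and growth arrest, KLF5 to proliferation, and KLF6 to growth arrest.

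The deposited values lie around 0 and were read as log2 distances from a baseline of each probe set, although no source names the baseline or the log base. A difference between arrays can therefore be read for each gene, while the level of a gene, and whether it lay above background at all, cannot. A probe set or gene is called lower or higher here where the difference reaches 1.5-fold, 0.585 on the log2 scale. A gene's difference is the median over its probe sets. The vehicle array stood apart from the other 2 across the whole genome, with a standard deviation over probe sets of 0.12 on the estradiol array, 0.13 on the ERα17p array and 0.27 on the vehicle array. As a comparison of RNA integrity between arrays, the 3′ value of ACTB minus its 5′ value was taken, both as distances from the baseline. It came to 0.02 on the estradiol array, -0.04 on the ERα17p array and 0.30 on the vehicle array. That of GAPDH came to 0.01, -0.03 and 0.05 in the same order. Because each probe set has its own baseline, a value near 0 does not show intact RNA on that array. Whether RNA quality had a part in the differences from vehicle was not tested. The 8 markers of the SKBR3 epithelium, ERBB2 and keratins among them, differed by -0.14 to 0.41 between the estradiol and vehicle arrays and by -0.07 to 0.28 between the ERα17p and vehicle arrays, and none was called. Of the 4 measured markers of leukocytes and endothelium and the 3 of fibroblasts, 0 were called in any comparison. Their presence or absence cannot be read from values without levels.

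Of the 32 Krüppel-like factor probe sets, 12 (37.5%) were lower with estradiol than with vehicle and 0 were higher. Among all 54613 probe sets other than controls, 3.4% were lower and 1.54% higher. With ERα17p 11 of the 32 (34.4%) were lower than with vehicle and 0 were higher, against 2.69% and 0.912% of all probe sets. By gene, KLF4, KLF6, KLF7 and KLF10 were lower on the estradiol array and also on the ERα17p array, 4 of 10 genes each time. None was higher. Of all genes, 2.93% were lower and 0.804% higher with estradiol, and 2.09% lower and 0.582% higher with ERα17p. Both comparisons use the same vehicle array, so they are not separate evidence, and in whole-culture RNA less transcript per cell cannot be told apart from fewer cells that make it. Between the estradiol and ERα17p arrays 0 of the 32 probe sets were called, where 0.253% of all were lower and 0.401% higher. The members were chosen with earlier results of these data known, so these shares are a description and not a test. The plot of the shares that were lower sets the members beside all features.

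**Figure D1:**
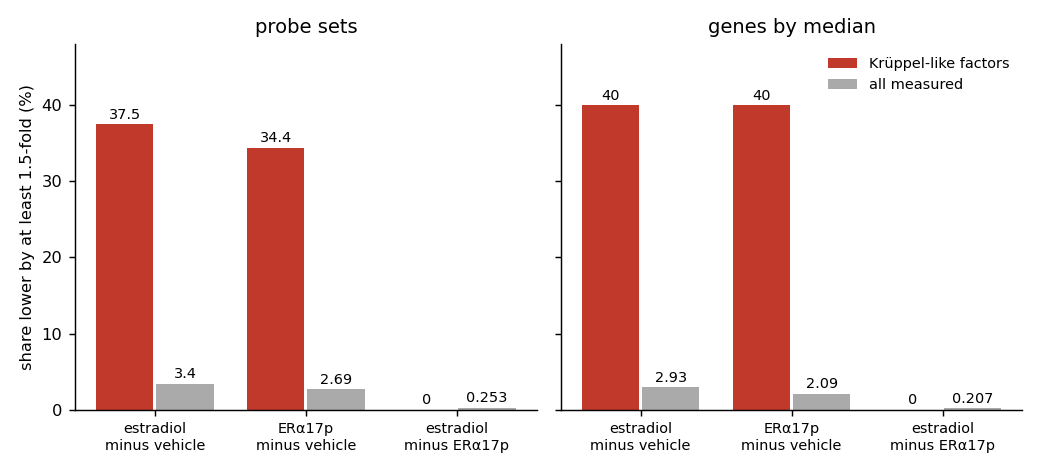
Share of probe sets (left) and of genes by median (right) that were lower by at least 1.5-fold, in percent, for the Krüppel-like factors (red) and for everything measured (grey), in the 3 comparisons. The members reached 37.5% and 34.4% of probe sets in the comparisons with vehicle, where all probe sets reached 3.4% and 2.69%, and 0 in estradiol minus ERα17p.

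The differences from vehicle came with heights on the vehicle array. There, 12 of the 32 probe sets lay at least 1.5-fold above the baseline, as did 2.69% of all probe sets, and 0 lay that far below it, as did 0.456% of all. On the estradiol array 0 of the 32 lay that far from the baseline in either direction, with values from -0.27 to 0.38, where 0.0439% of all probe sets lay below and 0.0513% above. On the ERα17p array 0 did, with values from -0.44 to 0.32, where 0.0293% of all lay below and 0.0476% above. The plot of values by array shows the treated arrays close to the baseline and the vehicle array to their right for most probe sets of KLF4, KLF6, KLF7 and KLF10. Which of these arrays departed from the usual state of the cells cannot be told apart with 1 array each.

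**Figure D2:**
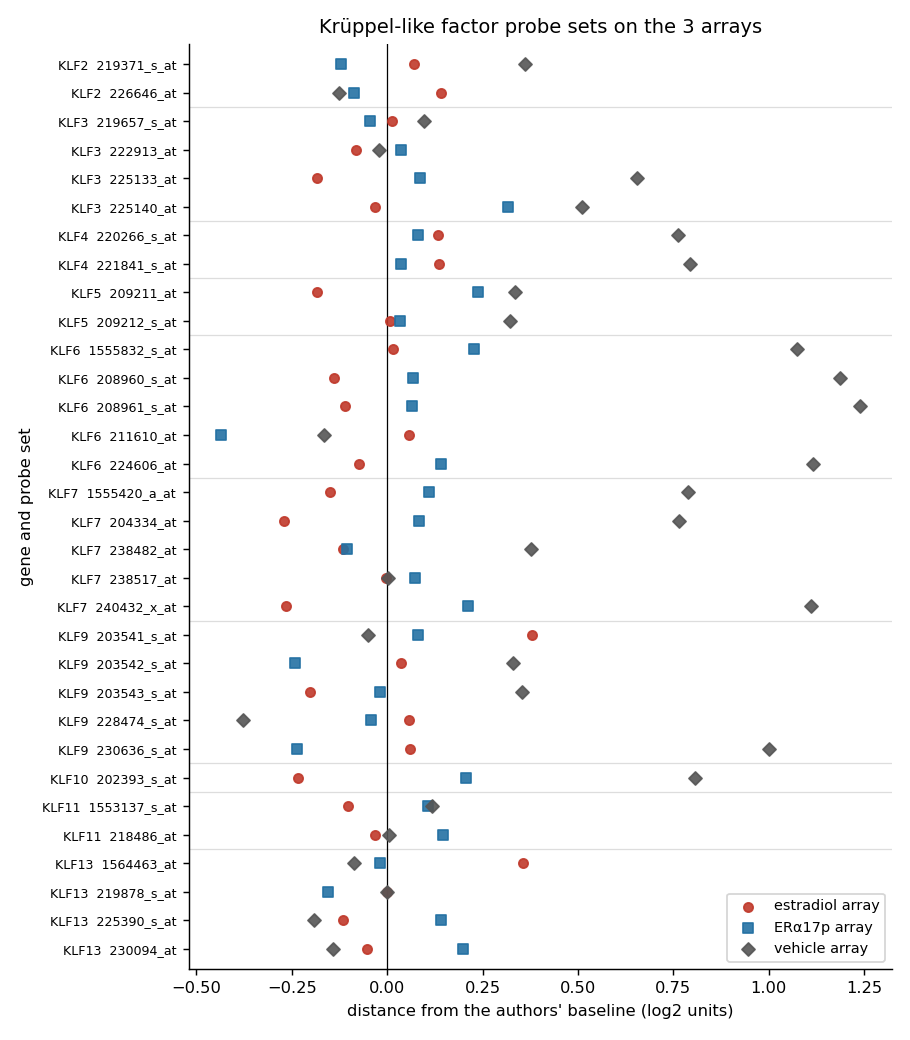
Log2 distance from the baseline of each of the 32 Krüppel-like factor probe sets on the estradiol (red circle), ERα17p (blue square) and vehicle (grey diamond) array. The estradiol values run from -0.27 to 0.38, the ERα17p values from -0.44 to 0.32 and the vehicle values from -0.38 to 1.24.

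The 5 genes of the coactivator-recruiting group, KLF2, KLF4, KLF5, KLF6 and KLF7, held 16 of the probe sets and most of the calls. Of these 16, 9 were lower with estradiol than with vehicle (median -0.64), as were 3.4% of all probe sets. With ERα17p 9 were lower (median -0.68), as were 2.69% of all. Each time the 9 belonged to KLF4 (2), KLF6 (4) and KLF7 (3), and KLF2 and KLF5 had 0.

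KLF6, a zinc finger factor first described as a core promoter binding protein and known as an early gene of tissue injury, was the member with the largest median difference in both comparisons with vehicle. Its probe set 208961_s_at stood at -0.11 on the estradiol array, 0.06 on the ERα17p array and 1.24 on the vehicle array. Probe set 208960_s_at read -0.14 with estradiol, 0.07 with ERα17p and 1.19 with vehicle. The vehicle array was thus the high one, and estradiol differed from ERα17p by -0.17 and -0.21 on these probe sets. Similar values came from 224606_at (-0.07 with estradiol, 0.14 with ERα17p, 1.12 with vehicle) and 1555832_s_at (0.02, 0.23 and 1.08 in that order). The fifth KLF6 probe set, 211610_at, did not share the pattern, with 0.06 on the estradiol array, -0.44 on the ERα17p array and -0.17 on the vehicle array. As a median over all 5, KLF6 was 2.28-fold lower with estradiol (-1.19, probe sets from -1.35 to 0.22) and 1.96-fold lower with ERα17p (-0.97, from -1.18 to -0.27). With only 224606_at and 211610_at, whose names have the plain ending _at, the median was -0.48 with estradiol, which is no call, and -0.62 with ERα17p. As a median over all 5, KLF6 ranked 124 from the lowest of 19775 genes with estradiol and 152 with ERα17p.

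KLF7, best known for its role in the outgrowth of neuronal axons, gave a graded picture across its 5 probe sets. The widest difference was that of 240432_x_at, with -0.26 on the estradiol array, 0.21 on the ERα17p array and 1.11 on the vehicle array. Next came 204334_at with -0.27 for estradiol, 0.08 for ERα17p and 0.77 for vehicle, and 1555420_a_at with -0.15, 0.11 and 0.79 in that order. On these 3 probe sets the estradiol array was the lowest, the ERα17p array lay between, and the vehicle array was the highest. Probe set 238482_at read -0.12 with estradiol, -0.11 with ERα17p and 0.38 with vehicle, short of a call in either comparison. On 238517_at all arrays lay near the baseline, at -0.00 for estradiol, 0.07 for ERα17p and 0.00 for vehicle. The KLF7 median difference was -0.94 (1.91-fold lower) for estradiol minus vehicle and -0.68 (1.60-fold lower) for ERα17p minus vehicle. With the mean over probe sets in place of the median, KLF7 was no longer called with ERα17p, at -0.53. Its 3 probe sets with the plain ending _at alone gave medians of -0.49 with estradiol and -0.48 with ERα17p, short of a call in both.

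KLF4, a factor of epithelial differentiation and one of the classic reprogramming factors, was read by 2 probe sets that matched each other closely. Probe set 221841_s_at stood at 0.14 on the estradiol array, 0.04 on the ERα17p array and 0.79 on the vehicle array. On 220266_s_at the values were 0.13 with estradiol, 0.08 with ERα17p and 0.76 with vehicle. Both treated arrays lay low and near each other here, and the vehicle array lay above them. The median difference was -0.64 (1.56-fold lower) for estradiol and -0.72 (1.65-fold lower) for ERα17p, each against vehicle. At -0.63, 220266_s_at was, among the called Krüppel-like factor probe sets, the one nearest to the 1.5-fold limit in the estradiol comparison.

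KLF5, a factor of proliferating epithelium, was not called. Its probe set 209211_at read -0.18 on the estradiol array, 0.24 on the ERα17p array and 0.34 on the vehicle array, and 209212_s_at read 0.01, 0.03 and 0.32 in that order. The vehicle array was again the highest on both, with a median difference of -0.42 for estradiol minus vehicle and -0.19 for ERα17p minus vehicle. KLF2, a factor of quiescent endothelium and T cells, showed no shared direction. Probe set 219371_s_at stood at 0.07 with estradiol, -0.12 with ERα17p and 0.36 with vehicle, whereas 226646_at stood at 0.14 with estradiol, -0.09 with ERα17p and -0.13 with vehicle. The vehicle array was the highest on one and the lowest on the other, and the median differences were -0.01 with estradiol and -0.22 with ERα17p.

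KLF3, a repressor that acts through CtBP, was split between its 4 probe sets. On 225133_at the estradiol array stood at -0.18, the ERα17p array at 0.09 and the vehicle array at 0.65, and on 225140_at they stood at -0.03, 0.32 and 0.51. The first of these was called lower with estradiol (-0.84) and narrowly missed with ERα17p (-0.57). Both other KLF3 probe sets, 219657_s_at and 222913_at, lay within 0.1 of the baseline on all 3 arrays and differed from vehicle by -0.14 to 0.06. The gene's median was -0.31 with estradiol and -0.17 with ERα17p. Probe sets of its neighbour KLF3-AS1, a noncoding RNA, differed from vehicle by 0.00 and 0.05 with estradiol and by -0.07 and 0.17 with ERα17p.

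In the SIN3-recruiting group, KLF9, KLF10, KLF11 and KLF13, 2 of 12 probe sets were lower with estradiol than with vehicle (median -0.02). With ERα17p 2 were lower (median 0.03). Of all probe sets, 3.4% and 2.69% were lower in that order. The called ones were 1 each of KLF10 and KLF9 in both comparisons. The difference from the coactivator-recruiting group was not tested. KLF10, first named TGF-β-inducible early gene, was read by 202393_s_at alone, which stood at -0.23 on the estradiol array, 0.21 on the ERα17p array and 0.81 on the vehicle array. The estradiol array was lowest and the ERα17p array lay between. KLF10 was 2.06-fold lower with estradiol than with vehicle (-1.04). With ERα17p it was 1.52-fold lower than with vehicle (-0.60), the called member nearest to the limit in that comparison. KLF11, its close relative and also known to be induced by TGF-β, was not called. On 1553137_s_at it read -0.10 with estradiol, 0.11 with ERα17p and 0.12 with vehicle, and on 218486_at -0.03, 0.15 and 0.01 in that order, so that its median differences from vehicle were -0.13 with estradiol and 0.07 with ERα17p.

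KLF9, which glucocorticoids and thyroid hormone are known to induce, had probe sets that disagreed in sign. On 230636_s_at the arrays stood at 0.06 for estradiol, -0.24 for ERα17p and 1.0 for vehicle, differences of -0.94 and -1.24 from vehicle. That probe set gave the widest difference of all 32 in the ERα17p comparison. In contrast, 228474_s_at read 0.06 with estradiol, -0.04 with ERα17p and -0.38 with vehicle, and 203541_s_at read 0.38, 0.08 and -0.05. The vehicle array was thus the highest on 1 of these 3 and the lowest on the other 2. Both remaining probe sets had the vehicle array highest: 203542_s_at with 0.04 for estradiol, -0.24 for ERα17p and 0.33 for vehicle, and 203543_s_at with -0.20, -0.02 and 0.35. These were the probe sets just short of a call, at -0.57 for 203542_s_at in ERα17p minus vehicle and -0.56 for 203543_s_at in estradiol minus vehicle. Over its 5 probe sets KLF9 had medians of -0.29 with estradiol and -0.37 with ERα17p, and it was not called. KLF13, known in T cells as an activator of the chemokine gene CCL5, had 4 probe sets with differences from -0.00 to 0.44 for estradiol minus vehicle and from -0.15 to 0.34 for ERα17p minus vehicle. Its medians of 0.08 and 0.20 made it the one member above 0 in both.

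**Figure D3:**
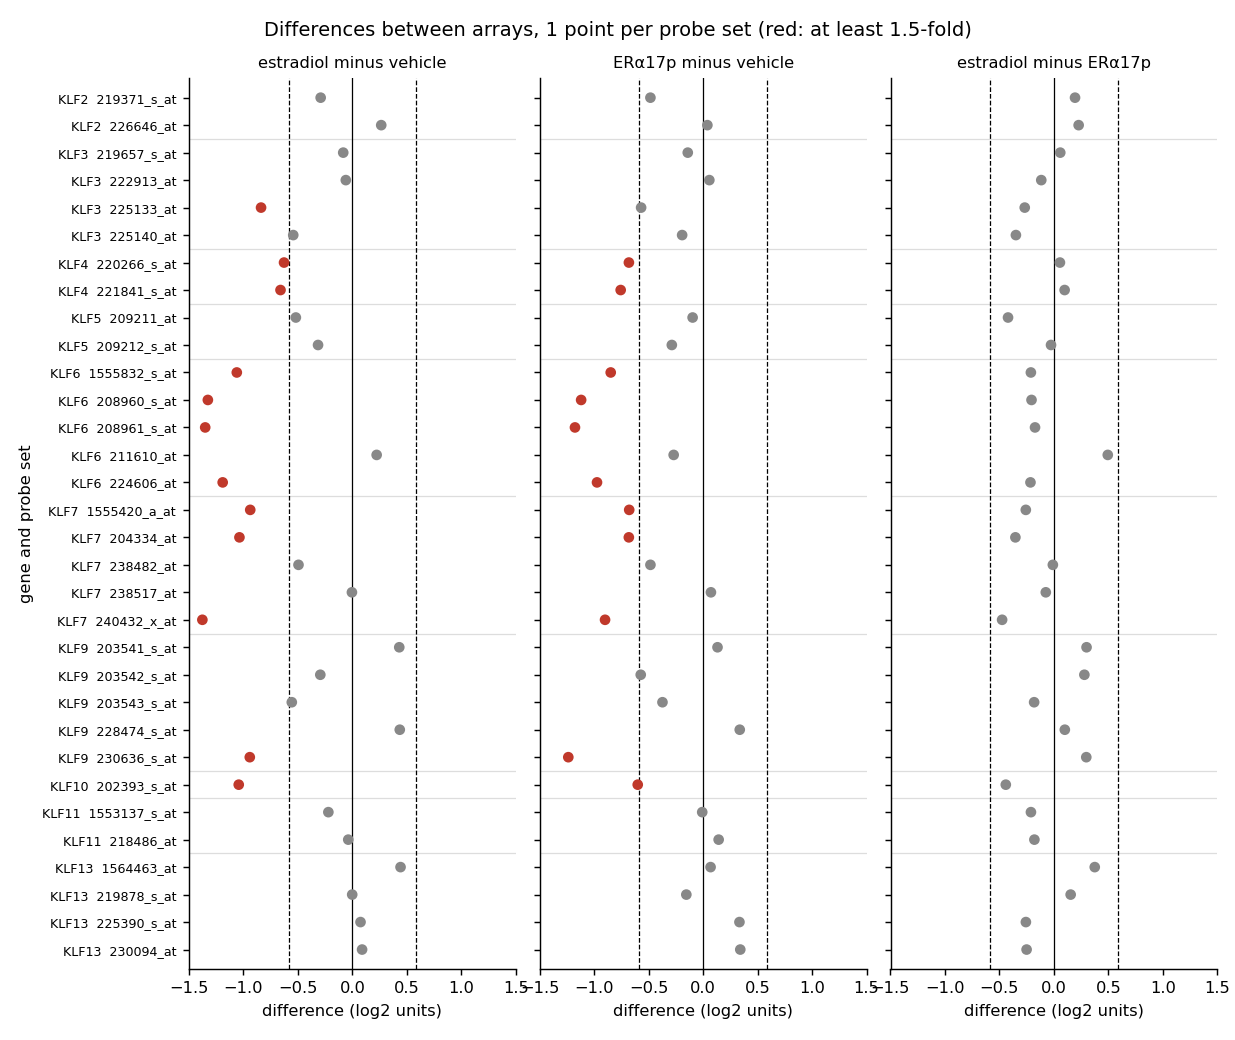
Log2 difference of each Krüppel-like factor probe set in estradiol minus vehicle (left), ERα17p minus vehicle (middle) and estradiol minus ERα17p (right), with dashed lines at 1.5-fold and red points past them. In the left panel 12 of 32 points lie past the lower line and in the middle panel 11, while all points of the right panel lie between -0.48 and 0.49.

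The plot of differences by probe set shows how far probe sets of 1 gene parted. Among the 9 members with at least 2 probe sets, 4 had probe sets of both signs for estradiol minus vehicle and 6 for ERα17p minus vehicle, 44.4% and 66.7%. Over all 10523 genes with at least 2 probe sets the shares were 53.4% and 53.7%. The spread of a gene, its highest minus its lowest probe set, was wider among the members. For estradiol minus vehicle its median was 0.56 over the 9 members and 0.29 over all such genes. For ERα17p minus vehicle the medians were 0.52 and 0.27. Affymetrix marks probe sets whose probes match several transcripts, of the same or another gene, by the endings _s_at, _x_at or _a_at, and 19 of the 32 carried one. Of these 19, 9 were lower with estradiol and 9 with ERα17p. Of the 13 others, 3 were lower with estradiol (KLF3 225133_at, KLF6 224606_at and KLF7 204334_at) and 2 with ERα17p (the KLF6 and KLF7 ones). Of all probe sets, whatever the ending, 3.4% were lower with estradiol and 2.69% with ERα17p. These shares were not computed by ending, so whether the split is particular to the members cannot be told. KLF4, KLF9 and KLF10 had no probe set without such an ending. The gene table lists 8 pseudogenes of 4 members, KLF2, KLF3, KLF4 and KLF7, and whether their transcripts add to these signals was not tested.

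Estradiol was set directly against ERα17p, a comparison at equal dose and time that leaves the vehicle array out. None of the 10 genes was called, the medians running from -0.44 to 0.28, where 0.207% of all genes were lower and 0.147% higher. The lowest was KLF10 (-0.44, or 1.36-fold), which ranked 144 from the lowest of 19775 genes. KLF7 (-0.26), KLF5 (-0.22), KLF6 (-0.21), KLF11 (-0.20) and KLF3 (-0.19) also lay lower with estradiol. KLF9 (0.28), KLF2 (0.21) and KLF4 (0.08) lay on the other side, and KLF13 was at -0.05. Single probe sets reached -0.48 (KLF7 240432_x_at) and 0.49 (KLF6 211610_at). The median over the members was -0.19, and over all genes it was -0.01 with a standard deviation of 0.16. A difference of this size cannot be told from the spread between cultures, which was not measured.

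Upstream sequence was taken from a RefSeq promoter table (GRCh38.p14) for 8 of the 10 genes, with 13 start sites. KLF3 and KLF10 were not analysed in this respect. The 250 bases before each start site were searched on both strands for the GC box GGGCGG and the CACCC box CCACCC, the elements that Krüppel-like factors and SP proteins themselves bind, for the cAMP response element TGACGTCA, and for the CArG box (bound by serum response factor), the MEF2 site and the NF-kB site. The GC box was found in 8 of the 13 windows and in 7 of the 8 genes, all but KLF9, and in 42.6% of all 35116 windows in the table. The CACCC box was found in 2 of 13, at KLF7 and KLF13, and in 31.3% of all. A CArG box was found only at KLF7 (1.16% of all windows), in the window farthest upstream, while the other KLF7 windows held none. A MEF2 site was found only at KLF2 (2.8%). A cAMP response element was found only at KLF11 (1.65%), in 1 of its windows. No window of the 13 matched the NF-kB pattern, which 9.96% of all windows did. The windows of KLF6 and KLF4, with a single start site each, and of the start of KLF7 that lies farthest upstream are shown because these genes were called, and that of KLF2 because it was not called and holds the MEF2 match. Capitals mark the matches, and all run from 5′ to 3′ on the strand of the gene.
KLF6, chr10:3785210-3785459, minus strand: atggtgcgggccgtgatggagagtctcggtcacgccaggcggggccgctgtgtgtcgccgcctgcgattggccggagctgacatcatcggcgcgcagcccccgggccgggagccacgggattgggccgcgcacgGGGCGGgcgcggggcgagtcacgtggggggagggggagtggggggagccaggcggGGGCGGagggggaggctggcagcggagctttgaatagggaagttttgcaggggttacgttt
KLF4, chr9:107489770-107490019, minus strand: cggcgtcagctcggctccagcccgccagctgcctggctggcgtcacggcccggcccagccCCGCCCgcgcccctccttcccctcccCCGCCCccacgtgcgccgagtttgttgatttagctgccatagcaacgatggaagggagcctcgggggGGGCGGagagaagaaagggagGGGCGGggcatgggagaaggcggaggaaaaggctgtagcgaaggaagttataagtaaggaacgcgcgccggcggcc
KLF7, chr2:207167247-207167496, minus strand: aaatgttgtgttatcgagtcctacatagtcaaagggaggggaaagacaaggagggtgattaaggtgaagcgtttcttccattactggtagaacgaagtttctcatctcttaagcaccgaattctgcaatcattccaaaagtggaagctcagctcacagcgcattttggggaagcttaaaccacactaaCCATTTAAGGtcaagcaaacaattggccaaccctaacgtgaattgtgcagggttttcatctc
KLF2, chr19:16324576-16324825, plus strand: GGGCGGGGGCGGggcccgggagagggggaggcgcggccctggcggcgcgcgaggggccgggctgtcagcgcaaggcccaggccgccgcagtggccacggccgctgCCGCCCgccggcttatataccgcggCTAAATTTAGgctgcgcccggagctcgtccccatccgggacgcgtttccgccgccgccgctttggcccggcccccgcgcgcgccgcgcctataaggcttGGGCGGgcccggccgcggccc
In KLF6 the 2 and in KLF4 the 4 capital stretches are GC boxes. The capital stretch of KLF7 is its CArG match, starting 62 bases before the start site. KLF2 has 4 GC boxes and, 120 bases before the start site, the MEF2 match. MEF2 factors are known to drive KLF2 and KLF4 in endothelium downstream of the kinase ERK5. A match is a description of letters, and no binding was measured here.

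Relatives and partners of the members gave no calls by gene median, although single probe sets of some passed 1.5-fold. Of all genes, 2.93% were lower than with vehicle with estradiol and 2.09% with ERα17p. The members and the lists were chosen with earlier results of these data known, so the contrast between them may partly reflect that choice. Of 15 other measured KLF and SP genes, 0 were called in any of the comparisons, with medians of 0.05 for estradiol minus vehicle and 0.01 for ERα17p minus vehicle. The farthest from 0 was KLF15, a metabolic regulator of liver and muscle, at 0.36 with estradiol, followed by KLF17 (0.26). Single probe sets of SP4, a factor of the SP branch, disagreed widely, from -0.60 to 0.67 with estradiol and from -0.50 to 0.35 with ERα17p. Of 10 cofactor genes 0 were called. EP300, the acetyltransferase that serves as a coactivator, lay at -0.46 with estradiol and -0.32 with ERα17p, and SAP30, a subunit of the SIN3 complex, at 0.33 and 0.27. The 9 upstream regulators and ubiquitin ligases also gave 0 calls, but 8 of the 9 lay below 0 with estradiol (median -0.23) and 7 with ERα17p (median -0.18). They included FBXW7 (-0.32 with estradiol, -0.18 with ERα17p) and SMURF2 (-0.32 and -0.23), which encode ubiquitin ligase components, and MEF2D (-0.32 and -0.22) and MEF2C (-0.17 and -0.36). Over all genes the medians were 0.03 for each comparison with vehicle.

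Genes reported elsewhere as targets of Krüppel-like factors were called in part. Of 17 measured genes, 4 were lower with estradiol than with vehicle and 3 with ERα17p, and none was higher. Of all genes, 2.93% were lower and 0.804% higher with estradiol, and 2.09% lower and 0.582% higher with ERα17p. The list was chosen with earlier results of these data known, so its count is a description. PLAU, which encodes the urokinase plasminogen activator, stood at -0.11 on the estradiol array, -0.07 on the ERα17p array and 2.23 on the vehicle array. CDKN1A, the gene of the cell cycle inhibitor p21 and a target of KLF4 and KLF6, stood at -0.68, 0.10 and 1.30 in that order, so that it was lower with estradiol than with ERα17p as well (-0.78). The chemokine gene CCL5 was lower than with vehicle by -0.80 with estradiol and -1.22 with ERα17p. SMAD7, the inhibitor of TGF-β signalling that KLF10 is known to repress, was lower with estradiol than with vehicle (-1.05), not called with ERα17p against vehicle (-0.12), and lower with estradiol than with ERα17p (-0.93). CDKN1A and SMAD7 were read by 1 probe set each. The other 13 lay between -0.16 and 0.38 with estradiol, CCND1, CDH1 and THBD among them, and the list's median was -0.00 with estradiol and 0.05 with ERα17p. These genes answer to many other factors, and no link to a member was tested.

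Early response factors of other families are given beside the members for scale. Of 8 AP-1 genes 5 were lower with estradiol (median -1.67) and 5 with ERα17p (median -1.47), FOS, FOSB, JUN, JUNB and ATF3 each time. Of 6 measured EGR and NR4A genes 4 were lower with estradiol (median -0.97) and 4 with ERα17p (median -1.01), namely EGR1, EGR3, NR4A2 and NR4A3. Of all genes, 2.93% were lower with estradiol and 2.09% with ERα17p. The Krüppel-like factors had medians of -0.36 and -0.30. These lists, chosen with earlier results of these data known, are set side by side as values. The difference between them was not tested.

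**Figure D4:**
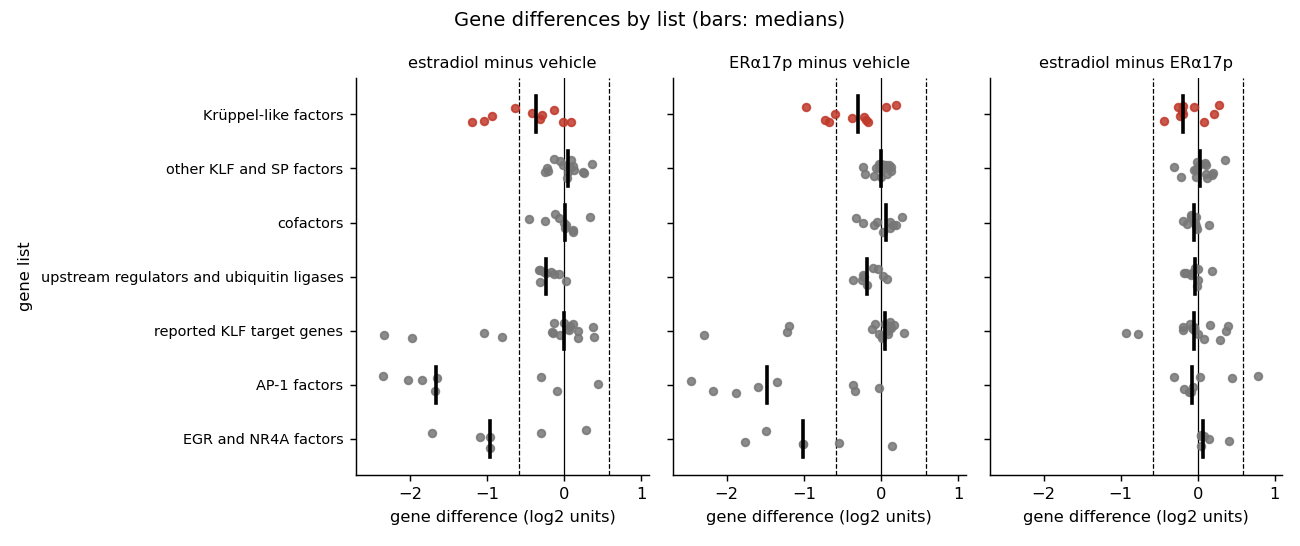
Gene differences (median over probe sets, log2 units) in the 3 comparisons for the Krüppel-like factors (red) and 6 other lists (grey), 1 point per gene, with black bars at the list medians and dashed lines at 1.5-fold. The Krüppel-like factors have medians of -0.36, -0.30 and -0.19 from left to right, and the other KLF and SP factors lie between the dashed lines throughout.

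For each called member the 3 genes with the nearest pair of differences from vehicle were looked up among 18177 genes, by the distance over estradiol minus vehicle and ERα17p minus vehicle. Nearest to KLF10 lay HMGCS1 (-1.05 with estradiol and -0.60 with ERα17p, at a distance of 0.01), CLK1 (0.03) and DDIT4 (0.04). KLF6 had WAKMAR2 (distance 0.05), CPEB4 (0.05) and EPB41L4A-AS1 (0.07). Around KLF7 lay ZNF267 (0.02), GATA6-AS1 (0.03) and CBLL1 (0.03), and around KLF4 USP36 (0.01), TRAF3 (0.03) and PAPOLA-DT (0.04). With 3 arrays this likeness rests on 2 numbers per gene, and many genes lie close by.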

How the data were processed

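Gene expression was measured in 3 RNA samples of SKBR3 cells with 1 array each, grouped by the sample labels. Whether they came from separate cultures or experiments is not stated. RMA (background correction, quantile normalisation, probe summary) was used by the authors, per the submitters' processing notes, which name no version. Its usual scale is log2, and the deposited values were taken as log2 although no source names the base. They lie around 0 in each column (medians -0.00, 0.00 and -0.02 for estradiol, ERα17p and vehicle), and 3979 of 54675 probe sets (7.28%) held mirrored values in a pair of columns (within 1e-06, values over 0.001), as a median over an even, larger set of arrays would give. A baseline was therefore taken to have been subtracted from each probe set. Signal over background is thus unknown, and precision is limited by the number of arrays.

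Gene names came from the platform annotation. Of 54613 that were not controls, 41091 had 1 symbol, 1801 several and 11721 none. All 10 members matched the GRCh38.p14 gene table by Entrez ID with an unchanged symbol. Differences were taken per probe set and summarised per gene as the median of the probe sets' differences, in Python 3.11.15 with pandas 2.3.3. No test was possible without replicates; a size of 1.5-fold was used. No filter on dim probe sets was possible. The members and the gene lists were chosen with earlier results of these data known. Named were all members, list genes past 1.5-fold or with large differences, and the 3 nearest genes of each called member, passing over locus-number names. A few further list genes were named after their values were seen. Alternatives were a 2-fold size, recentring, other gene summaries, fewer probe sets and the baseline in place of vehicle.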

Additional observations from a re-analysis of the deposited data

How the results depend on the processing

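With 1 array per treatment no array could be left out, and no paired analysis was possible because each group holds 1 sample. Subtracting the median of all features moved the calls little (12 and 13 probe sets with estradiol and ERα17p against vehicle, 4 genes each). At 2-fold, 7 probe sets and 2 genes (KLF6 and KLF10) were lower with estradiol, and 3 probe sets and 0 genes with ERα17p. Without probe sets ending in _s_at, _x_at or _a_at, 3 of 13 probe sets and 0 of 7 genes were lower with estradiol, and 2 of 13 and 1 of 7 with ERα17p; KLF6 then had -0.48 and KLF7 -0.49 with estradiol, and KLF7 -0.48 with ERα17p. This setting leaves KLF4, KLF9 and KLF10 without a value, and KLF6 with 2 probe sets of opposite sign with estradiol. With the baseline of the deposited values in place of the vehicle array, 0 of 32 probe sets were called for estradiol and 0 for ERα17p. Of all probe sets, 0.0439% were then lower and 0.0513% higher for estradiol, and 0.0293% lower and 0.0476% higher for ERα17p. So few pass that 0 calls say little about the members, and these arrays may have been part of the baseline. The mean over probe sets gave 4 and 3 lower genes, and the most changed probe set 6 and 5. Taking the most changed probe set can add calls to the median but not remove them, for any gene. Apart from the baseline setting, no share of all features was computed for these alternatives, so their counts describe the members only. Estradiol minus ERα17p had 0 calls under every alternative run for it, but none of these could have given a call. All member probe sets lay between -0.48 and 0.49 in this comparison, short of the limit. A stricter size, another gene summary or fewer probe sets cannot carry a gene past a limit that none of its probe sets reaches. The medians subtracted, -0.01 for probe sets and for genes, were too small to do so. No called gene changed sign with the mean over probe sets or, where it kept a value, without those endings. For KLF4 and KLF10 neither setting could change the sign. With 2 and 1 probe sets their mean equals their median, and without those endings they have no value.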
